A study of Mus musculus with 4 samples.

Results

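S100a proteins, annexins and galectins were followed through 10 genes: S100a4, S100a6, S100a10, S100a11, Anxa1, Anxa2, Anxa3, Anxa5, Lgals1 and Lgals3. They were taken by symbol from the 54348 rows of an expression table of mouse brain cells, and each symbol stood on 1 row. Forebrains of mice at postnatal day 4, given tamoxifen on postnatal days 0 and 1, were digested with papain, and live cells with red tdTomato fluorescence were sorted. The 2 fusion libraries came from PdgfraCreER;MN1:BEND2;AI14 mice and the 2 control libraries from PdgfraCreER;AI14 mice. Both groups therefore carried PdgfraCreER, a tamoxifen-activated recombinase driven by Pdgfra, the gene of a growth factor receptor found on oligodendrocyte precursors and on some fibroblasts, and AI14, a tdTomato reporter switched on by that recombinase. MN1:BEND2 is the gene fusion of astroblastoma, a brain tumour. The comparison asks how cells of the Pdgfra lineage express these genes with the fusion and without it. Whether the 2 libraries of a genotype came from different mice is not labelled, so p-values describe the spread between libraries, which may be technical.

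S100 proteins are small EF-hand proteins that, for the most part, bind calcium and then attach to target proteins. Annexins bind acidic membrane phospholipids when calcium rises, and several pair with an S100 partner: S100a10 with Anxa2 and S100a11 with Anxa1. Galectins bind beta-galactoside sugars on glycoproteins outside the cell and on damaged vesicles inside it. In the brain many of these genes are known from microglia, reactive astrocytes, vessels and meninges more than from oligodendrocyte precursors.

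The 4 S100 members lie on mouse chromosome 3 in 2 pairs of nearby genes (GENCODE M21, GRCm38). S100a4 (ENSMUSG00000001020.8, 90603771 to 90606045) ends 6836 bases before S100a6 (ENSMUSG00000001025.8, 90612882 to 90624181), with S100a5 between them. S100a11 (ENSMUSG00000027907.4, 93520488 to 93526287) ends 28792 bases before S100a10 (ENSMUSG00000041959.14, 93555080 to 93564643). Anxa5 is also on chromosome 3, at 36448923 to 36475894. Anxa2 is on chromosome 9, Anxa3 on 5, Anxa1 on 19, Lgals1 on 15 and Lgals3 on 14.

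Promoter sequences are shown for 3 members that stand for the outcomes described below, S100a11, which rose, S100a4, which fell, and Anxa2, which did not pass the test. Each is the 250 bases before the RefSeq start of the gene on its own strand (GRCm38.p6). RefSeq and GENCODE starts differ: of these 250 bases, 8 lie inside the GENCODE model of S100a11, 0 inside that of S100a4 and 63 inside that of Anxa2. The capitals mark matches to TGANTCA, the letters of an AP-1 site, and to TATAAA, the letters of a TATA box.
S100a11, chr3:93520246-93520495, plus strand: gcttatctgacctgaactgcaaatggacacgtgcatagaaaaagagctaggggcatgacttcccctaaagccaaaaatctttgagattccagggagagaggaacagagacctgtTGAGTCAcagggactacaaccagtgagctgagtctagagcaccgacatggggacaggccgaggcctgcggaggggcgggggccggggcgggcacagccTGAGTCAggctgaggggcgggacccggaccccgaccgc
S100a4, chr3:90603520-90603769, plus strand: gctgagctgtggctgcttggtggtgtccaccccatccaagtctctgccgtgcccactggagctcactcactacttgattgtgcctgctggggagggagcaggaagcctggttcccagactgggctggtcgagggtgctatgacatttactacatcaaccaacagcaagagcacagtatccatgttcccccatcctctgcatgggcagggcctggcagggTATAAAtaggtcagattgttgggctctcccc
Anxa2, chr9:69453433-69453682, plus strand: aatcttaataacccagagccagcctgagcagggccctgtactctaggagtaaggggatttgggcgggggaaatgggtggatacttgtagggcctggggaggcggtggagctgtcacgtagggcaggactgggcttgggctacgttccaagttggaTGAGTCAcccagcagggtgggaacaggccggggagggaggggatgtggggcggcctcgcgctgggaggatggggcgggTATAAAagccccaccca

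The S100a11 window held 2 matches to the AP-1 letters, starting 136 and 38 bases before the RefSeq start, and no TATA box. The S100a4 window held no AP-1 match and a TATA box starting 31 bases before the start. Anxa2 had both, an AP-1 match 95 bases and a TATA box 17 bases before the RefSeq start, so this TATA box lies inside the GENCODE model. Of the 10 members 7 had a promoter entry, and the windows of S100a6, Anxa5 and Lgals3 held neither motif, while that of Anxa1 held a TATA box starting 32 bases before the RefSeq start. The windows of Anxa1 and Lgals3 lie wholly inside the GENCODE gene models, that of Lgals3 from 5859 bases after the GENCODE start. The AP-1 letters read alike on both strands and the motifs share no base in these windows. Of all 32851 RefSeq mouse promoter windows of this length, 6.75% held the AP-1 letters, and 12.4% held TATAAA on either strand. The motifs were chosen after the windows had been read, and a match describes letters, not a site in use.

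Values are TPM, each gene's share of transcripts after division by transcript length, so levels can be set against each other between genes. Between libraries a share also depends on the other transcripts of the library. TPM keeps no read depth, and depth is unknown here. The share of TPM from mitochondrially encoded genes was 48.7% and 26.2% with the fusion and 10.1% and 7.30% in the control libraries, and 9050 and 10017 genes against 12772 and 13219 reached 1 TPM. Across the 12871 genes with at least 1 TPM in 2 libraries, the median change was -1.41 on the log2(TPM + 1) scale, so the changes below are also given relative to that median. Eif2s3y, a Y-linked gene, was listed at 0 in both fusion libraries, against 121 and 122 TPM in the control libraries, so sex and genotype cannot be told apart. In bulk libraries, fewer cells of a type and less RNA per cell cannot be told apart either.

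S100a11 and Lgals1 were far higher with the fusion, S100a4 was lower, and the most abundant member, S100a6, had overlapping levels. S100a10 and Anxa2, the partners of 1 complex, also overlapped between groups. Anxa5 lay above the controls in both fusion libraries without passing the test. Anxa1, Anxa3 and Lgals3 were near 0 throughout. In all, 7 of the 10 members reached 1 TPM in 2 libraries and were tested, and 2 were called higher and 1 lower at an adjusted p under 0.05 (limma, 2-sided, Benjamini-Hochberg over all tested genes). Over all tested genes 4.95% were called higher and 51.3% lower. After median ratio rescaling 4 of the 7 were called higher and 0 lower (limma, 0 also at an unadjusted p under 0.05), where 14.3% of all tested genes were higher and 18.6% lower. For 3 of the 7 the lower fusion library exceeded the higher control library, as for 10.2% of all tested genes, and for 1 of the 7 the reverse held, as for 71.1%. The median change of the 7 was 0.35 and that of all tested genes -1.41.

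**Figure D1:**
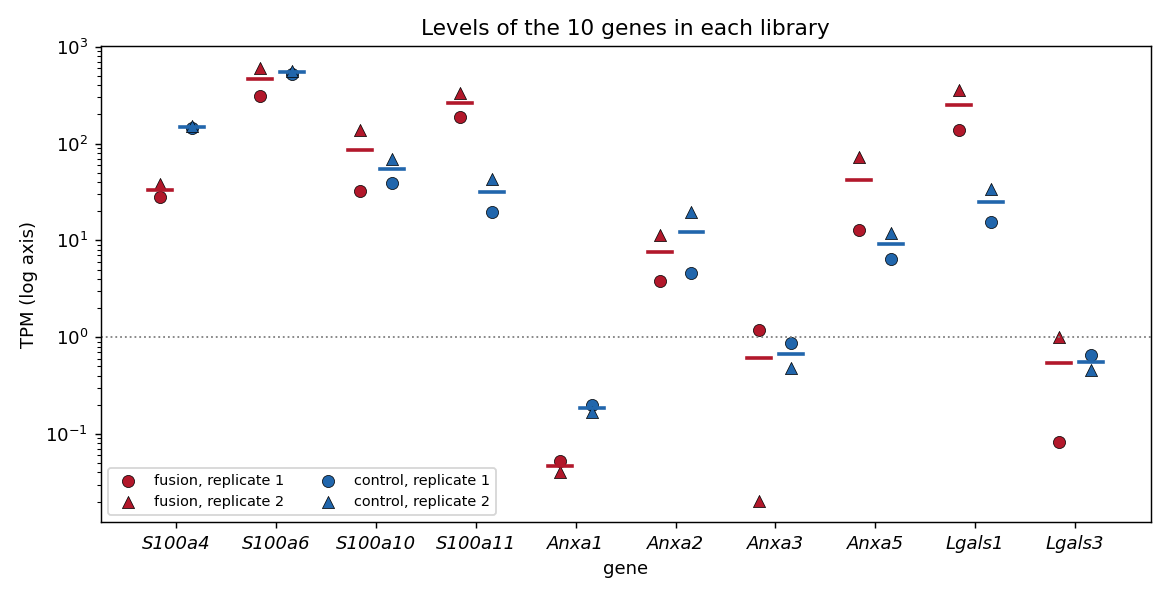
TPM of each of the 10 genes in each library on a log axis, with fusion libraries (red) left of control libraries (blue), circles for replicate 1, triangles for replicate 2 and a short line at the mean of 2 libraries. S100a11 and Lgals1 have both fusion points above both control points, S100a4 has both below, and Anxa1, Anxa3 and Lgals3 sit around or under the dotted line at 1 TPM.

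S100a11, which binds annexins and takes part in membrane repair, had 190 and 331 TPM in the fusion libraries, against 19.5 and 43.3 TPM in the control libraries. Every fusion value lay above every control value. The means were 260 ± 99.4 TPM with the fusion and 31.4 ± 16.9 TPM in the controls (SD, n = 2 each). The log2 change was 3.06 ± 0.53 (SE, limma adjusted p = 0.00774), or 4.47 relative to the median of all genes. It stayed upward under all 14 other settings and passed in 12, with adjusted p between 0.00114 and 0.123. The call ended without control replicate 1 (2.51, limma adjusted p = 0.123) and without control replicate 2 (3.62, limma adjusted p = 0.102). Of the 31-base words in S100a11 transcripts, 48.9% also occur in another gene model, mostly Gm12854 and Gm7665. Gm7665 was listed at 0 in all libraries and Gm12854 at 0 in all but control replicate 2, where it had 1.65 TPM, so how shared reads were divided is uncertain but little TPM went to those models.

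S100a4, which binds non-muscle myosin and is often used to mark fibroblasts and macrophages, moved the other way. It had 27.98 and 37.86 TPM in the fusion libraries and 146 and 151 TPM in the control libraries. The fusion values lay below both control values, and the control libraries were close to each other. The means were 32.9 ± 6.99 TPM with the fusion and 149 ± 3.68 TPM in the controls (SD, n = 2 each). The log2 change was -2.16 ± 0.35 (SE, limma adjusted p = 0.00655), which is -0.75 relative to the median of all genes. After rescaling of the libraries to equal median ratios the change was -0.41 and did not pass (limma adjusted p = 0.274), and with quantile normalization it was -0.47 (limma adjusted p = 0.210). The call also ended without control replicate 1 (limma adjusted p = 0.108) or control replicate 2 (limma adjusted p = 0.125), and over all 14 other settings adjusted p ran from 0.00201 to 0.274. Gm42674, a model that overlaps S100a4 and S100a3 on the same strand, holds 49.2% of the 31-base words of S100a4. It was listed at 0 in both fusion libraries and at 4.03 and 2.66 TPM in the control libraries.

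S100a6, or calcyclin, a marker of growing and of reactive cells, was the most abundant member in every library. It had 310 and 610 TPM in the fusion libraries and 529 and 566 TPM in the control libraries. The fusion libraries lay on either side of the controls, so the groups overlapped. Its log2 change was -0.33 ± 0.44 (SE, limma adjusted p = 0.547), or 1.08 relative to the median. Direction depended on scale: the change was 1.44 after median ratio rescaling (limma adjusted p = 0.0197). Without fusion replicate 2 it passed downward at -0.82 (limma adjusted p = 0.0101), and without fusion replicate 1 it was 0.16 (limma adjusted p = 0.316), within adjusted p of 0.0101 to 0.802 over the settings.

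S100a10, which does not bind calcium and holds Anxa2 at the membrane, had 32.3 and 138 TPM in the fusion libraries and 39.4 and 69.6 TPM in the control libraries. The fusion libraries spanned both controls. The log2 change was 0.35 ± 0.75 (SE, limma adjusted p = 0.712), or 1.76 relative to the median. After median ratio rescaling it was 2.08 and narrowly did not pass (limma adjusted p = 0.0501). It passed upward with quantile normalization (1.96, limma adjusted p = 0.0396) and without fusion replicate 1 (1.38, limma adjusted p = 0.0494), was -0.68 without fusion replicate 2 and -0.05 without control replicate 1, and over all settings adjusted p ran from 0.0396 to 0.978.

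Anxa2, the annexin of that complex, had 3.82 and 11.4 TPM in the fusion libraries, against 4.57 and 19.6 TPM in the control libraries. The libraries of each group differed more than the groups did. The log2 change was -0.47 ± 0.82 (SE, limma adjusted p = 0.649), or 0.94 relative to the median. It passed under no setting (adjusted p 0.284 to 0.937), and after median ratio rescaling its change was 1.07. The ratio of S100a10 to Anxa2, which no library scaling can alter, was 8.47 and 12.1 in the fusion libraries and 8.64 and 3.55 in the control libraries, so these also overlapped.

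Anxa5, which binds the phosphatidylserine that dying cells expose, had 12.7 and 72.4 TPM in the fusion libraries, against 6.37 and 11.97 TPM in the control libraries. Both fusion values lay above both control values, the lower only by a small margin. The log2 change was 1.70 ± 0.87 (SE) and did not pass (limma adjusted p = 0.148), at 3.10 relative to the median. Among other scalings and left-out libraries it passed after median ratio rescaling (3.31, limma adjusted p = 0.0273), with quantile normalization (3.25, limma adjusted p = 0.0207) and without fusion replicate 1 (2.91, limma adjusted p = 0.0125). Without fusion replicate 2 the change was 0.49 (limma adjusted p = 0.402). Adjusted p over the 14 other settings ran from 0.0125 to 0.553.

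Anxa1 and Anxa3 were not tested. Anxa1, an anti-inflammatory annexin that acts through formyl peptide receptors, had 0.0528 and 0.0402 TPM in the fusion libraries and 0.199 and 0.170 TPM in the control libraries. Anxa3, an annexin found in neutrophils and microglia, had 1.19 and 0.0205 TPM in the fusion libraries and 0.877 and 0.478 TPM in the controls. Neither therefore reached 1 TPM in 2 libraries. Anxa1, the annexin partner of S100a11, was thus close to 0 in every library, whether S100a11 was high or low.

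Lgals1, for galectin-1, had 138 and 361 TPM in the fusion libraries, against 15.4 and 34.3 TPM in the control libraries. Both fusion libraries lay above both controls. The means were 249.4 ± 157 TPM with the fusion and 24.8 ± 13.4 TPM in the controls (SD, n = 2 each). The log2 change was 3.22 ± 0.63 (SE, limma adjusted p = 0.0109), or 4.63 relative to the median. It was upward under all 14 other settings and passed in 11, with adjusted p from 0.000885 to 0.168. It did not pass with no filter on low values (limma adjusted p = 0.0523), without control replicate 1 (2.67, limma adjusted p = 0.168) or without control replicate 2 (3.78, limma adjusted p = 0.135). No 31-base word of Lgals1 occurs in another gene model, and its pseudogenes Lgals1-ps1 and Lgals1-ps2 were listed at 0 in all libraries. Lgals3, for galectin-3, a galectin of activated microglia and macrophages, stayed near 0. It had 0.0832 and 1.01 TPM in the fusion libraries and 0.661 and 0.459 TPM in the controls and was not tested.

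**Figure D2:**
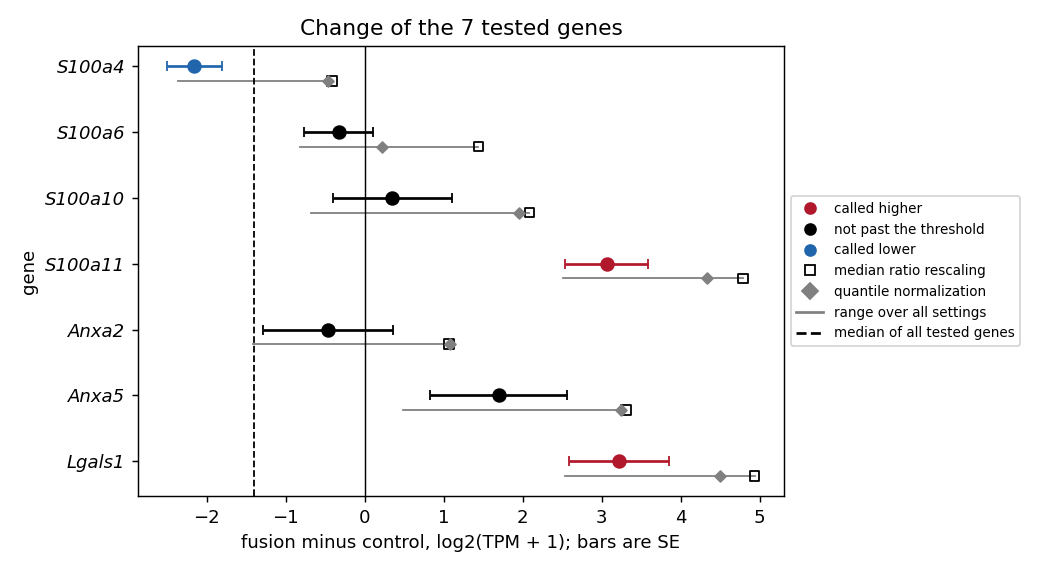
Change of the 7 tested members, fusion minus control in log2(TPM + 1), as points with SE, coloured by the call; below each point a grey line spans all settings, with a square for median ratio rescaling and a diamond for quantile normalization. S100a11 and Lgals1 stay right of 0 over the whole line, S100a4 stays left of it, and the lines of S100a6, S100a10 and Anxa2 cross 0; the dashed line is the median of all tested genes, -1.41.

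A gene's place among the tested genes of a library is not altered by a common scaling of that library. S100a11 stood above 96.8% and 96.6% of tested genes in the fusion libraries, against 65.5% and 76.4% in the controls. For Lgals1 these shares were 96.0% and 96.8% with the fusion and 60.9% and 72.5% in the controls. In the fusion libraries both stood close to S100a6, which stood above 97.7% and 97.8% in the fusion libraries and 97.3% and 97.5% in the controls. The place of S100a4 differed little, above 88.4% and 87.4% with the fusion and 90.4% and 90.3% in the controls, while its TPM fell. Anxa5 stood above 80.8% and 91.5% in the fusion libraries and 41.8% and 51.8% in the controls. S100a10 stood above 89.3% and 94.3% with the fusion and 76.9% and 82.6% in the controls, so its place did not overlap though its TPM did. For Anxa2 the shares were 59.5% and 73.8% with the fusion and 34.4% and 62.5% in the controls, which overlap. Place also depends on the other genes, and fewer genes reached 1 TPM in the fusion libraries. Like levels of Anxa5 had unlike places. At 12.7 TPM in fusion replicate 1 it stood above 80.8%, and at 11.97 TPM in control replicate 2 above 51.8%.

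TPM ratios between members within a library do not depend on library scaling. The pairs were chosen after the values were seen. The nearby genes S100a6 and S100a4 had a TPM ratio of 11.1 and 16.1 in the fusion libraries and of 3.63 and 3.74 in the control libraries. The nearby genes S100a11 and S100a10 had a ratio of 5.88 and 2.39 with the fusion, against 0.494 and 0.622 in the controls, so the more abundant of that pair differed between the groups. For Anxa5 over Anxa2 the ratio was 3.32 and 6.35 in the fusion libraries and 1.40 and 0.611 in the control libraries. For Lgals1 over S100a6 it was 0.446 and 0.591 with the fusion and 0.0290 and 0.0607 in the controls. None of these 4 ratios overlapped between groups. By level, both fusion libraries lay above both controls for 10.2% of all tested genes and below them for 71.1%. How often ratios of other gene pairs overlap was not counted. With 2 libraries a group the smallest p of a 2-sided exact permutation test is 0.333, so ratios are given without a test.

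**Figure D3:**
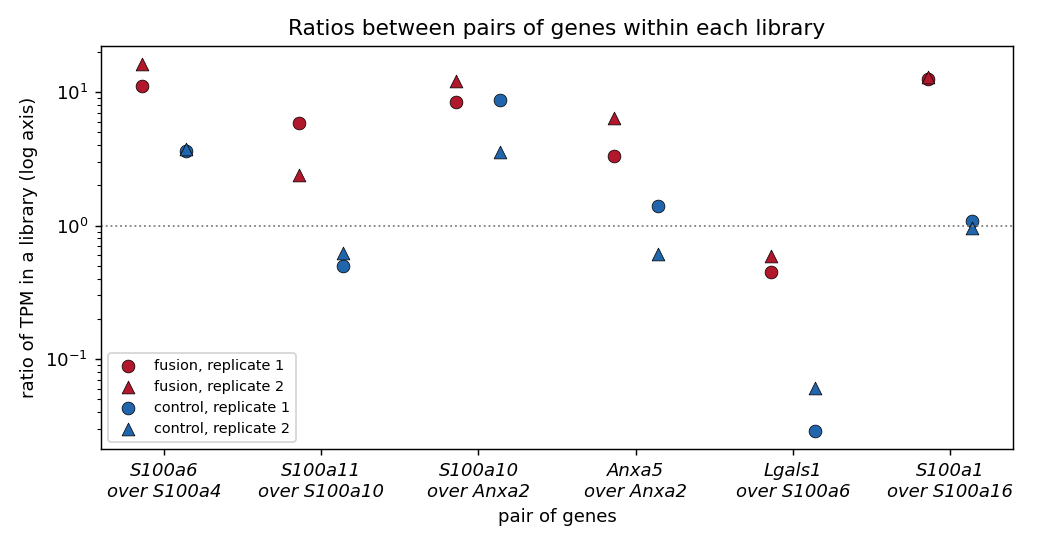
Ratio of the TPM of pairs of genes within each library on a log axis, fusion libraries (red) left of control libraries (blue), with a dotted line at equal TPM. The S100a10 to Anxa2 ratios overlap between groups and the other 5 pairs do not; S100a11 over S100a10 lies above 1 in both fusion libraries and below 1 in both controls.

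The summed TPM of the 10 members was 716 and 1563 in the fusion libraries and 762 and 897 in the control libraries, so the sum overlapped. The shares of S100a11, Lgals1 and Anxa5 in it lay higher with the fusion without overlap. Those of S100a6, S100a4 and Anxa1, the last near 0, lay lower without overlap. The shares of S100a10, Anxa2, Anxa3 and Lgals3 overlapped. By level, both fusion libraries lay above both controls for 10.2% of all tested genes and below them for 71.1%, and shares in sums of other genes were not counted. S100a6 gave 43.2% and 39.1% of the member sum with the fusion, against 69.4% and 63.1% in the controls. S100a11 gave 26.5% and 21.2% with the fusion and 2.56% and 4.83% in the controls. Lgals1 gave 19.3% and 23.1% with the fusion and 2.02% and 3.83% in the controls, and S100a4 3.91% and 2.42% with the fusion, against 19.2% and 16.9% in the controls.

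Replicates differed in a like direction across the members. All 7 tested members were higher in fusion replicate 2 than in fusion replicate 1, as were 62.1% of all tested genes, and all 7 were higher in control replicate 2 than in control replicate 1, as were 65.2% of all tested genes. In the fusion libraries the ratio of replicate 2 to replicate 1 ran from 1.35 for S100a4 to 5.70 for Anxa5, and in the controls from 1.04 for S100a4 to 4.29 for Anxa2. Over all tested genes the median ratio was 1.37 in the fusion and 1.13 in the control libraries.

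By distance in log2(TPM + 1) over the 4 libraries, the gene most like Lgals1 among 11144 others was S100a11, at a distance of 0.66. Next came Mt2, for a metallothionein, at 1.25, and H2-K1, for a class I antigen-presenting protein, at 1.26. H2-K1 had 273 and 406 TPM in the fusion libraries, against 25.3 and 26.7 TPM in the controls. The genes nearest to S100a6 were Gstm5, for a glutathione transferase, at 0.25, and the ribosomal protein genes Rpl7 and Rps3a1, at 0.26 and 0.31. Those nearest to Anxa2 were Cop1, Islr and Cdc25b, at 0.59 to 0.72. The measure takes in level as well as change and rests on 4 libraries.

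In the wider S100 family 6 of 12 further genes were tested, and 4 fell, 0 rose (0 also at an unadjusted limma p under 0.05) and 2 did not pass. Of all tested genes 51.3% were called lower and 4.95% higher. After rescaling 2 of the 6 were lower and 2 higher, beside 18.6% and 14.3% of all tested genes. S100a16 had 214 and 253 TPM in the fusion libraries and 2130 and 2075 TPM in the control libraries, with a log2 change of -3.17 ± 0.33 (SE, limma adjusted p = 0.00375), and it also passed after rescaling (-1.40, limma adjusted p = 0.0221). S100b, a marker of astrocytes that the oligodendrocyte lineage also makes, had 55.7 and 71.6 TPM with the fusion and 202 and 220 TPM in the controls (-1.72, limma adjusted p = 0.0107). After rescaling its change was 0.03. S100a3, next to S100a4, had 6.47 and 12.97 TPM in the fusion libraries and 43.8 and 50.3 TPM in the controls (-2.23, limma adjusted p = 0.0119). After rescaling its change was -0.56 and did not pass (limma adjusted p = 0.246). The ratio of S100a4 to S100a3 overlapped between groups, at 4.32 and 2.92 with the fusion and 3.33 and 3.01 in the controls. S100a14, known from epithelia, was listed at 0 in both fusion libraries, against 6.12 and 3.48 TPM in the controls (limma adjusted p = 0.00511). S100a14 reached the filter of 1 TPM only through the controls. S100a2, which was not on the list and was read after its values were seen, had 0.528 and 2.69 TPM with the fusion and 16.02 and 15.6 TPM in the controls (-2.82, limma adjusted p = 0.0117). After rescaling its change was -1.51 and did not pass (limma adjusted p = 0.105). It is in no count, sum or plot of the family here.

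S100a1, known from muscle and neurons, and S100a13, which takes part in the release of fibroblast growth factor, did not pass. S100a1 had 2693 and 3283 TPM in the fusion libraries, against 2319 and 1994 TPM in the controls (0.47, limma adjusted p = 0.329), and passed upward after rescaling (2.24, limma adjusted p = 0.0124), after renormalization without mitochondrial and ribosomal protein genes (1.10, limma adjusted p = 0.0151) and without fusion replicate 1 (0.61, limma adjusted p = 0.0285). S100a13 had 584 and 777 TPM with the fusion and 757 and 725 TPM in the controls (-0.14, limma adjusted p = 0.757), a direction that turned to 1.63 after rescaling (limma adjusted p = 0.0146). S100a8 and S100a9, the calprotectin pair of neutrophils, were at 0.591 TPM or less and at 0 in every library.

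Among 16 S100 genes together, 4 members and the 12 listed others, S100a1 made up 65.5% and 59.5% of the summed TPM in the fusion libraries, against 37.4% and 33.8% in the controls. S100a16 made up 5.20% and 4.59% with the fusion and 34.4% and 35.2% in the controls. S100a11 was 4.62% and 5.996% of that sum with the fusion and 0.315% and 0.734% in the controls. The ratio of S100a1 to S100a16 was 12.6 and 12.97 in the fusion libraries and 1.09 and 0.961 in the controls.

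**Figure D4:**
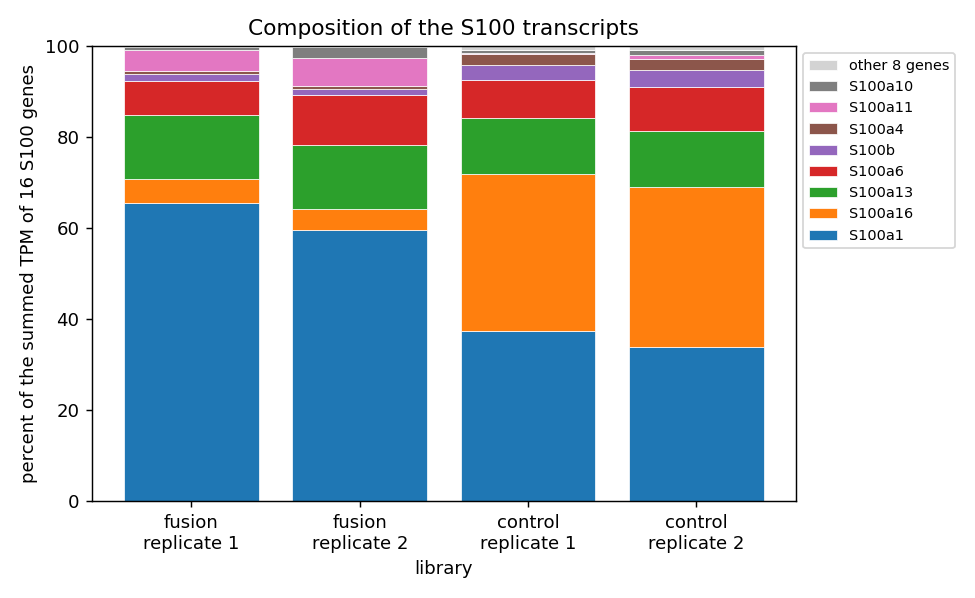
Stacked shares of the summed TPM of 16 S100 genes in each library, in percent, with the 2 fusion libraries left of the 2 control libraries. S100a16 takes 34.4% and 35.2% in the controls and 5.20% and 4.59% with the fusion, while S100a1 takes 65.5% and 59.5% with the fusion.

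Of 8 further annexins 4 were tested, and 1 rose, 1 fell and 2 did not pass. Of all tested genes 4.95% rose and 51.3% fell. Anxa6, an annexin of plasma membrane and endosomes, had 2.23 and 4.28 TPM in the fusion libraries and 24.3 and 57.1 TPM in the controls, a log2 change of -3.22 ± 0.57 (SE, limma adjusted p = 0.00840). After rescaling it was -1.66 and did not pass (limma adjusted p = 0.0547). Anxa8 was at 2.39 and 1.99 TPM in the fusion libraries and was listed at 0 in both controls (limma adjusted p = 0.00500). It reached the filter of 1 TPM only through the fusion libraries, so its call is not independent of the filter. Anxa7 and Anxa4 did not pass: Anxa7 had 6.33 and 5.07 TPM with the fusion and 6.60 and 3.83 TPM in the controls. Anxa4 had 3.12 and 1.18 TPM with the fusion and 1.09 and 1.31 TPM in the controls.

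Of the further galectins 7 were analysed and 3 tested, of which 1 rose and 2 fell, beside 4.95% and 51.3% of all tested genes. Lgals9, an interferon-induced galectin with a pair of sugar-binding domains, had 26.8 and 17.1 TPM in the fusion libraries, against 3.59 and 2.15 TPM in the controls. Its log2 change was 2.56 ± 0.47 (SE, limma adjusted p = 0.00913), and it passed after rescaling too (3.98, limma adjusted p = 0.0128). Lgals8, which detects damaged vesicles, had 4.13 and 3.86 TPM with the fusion and 28.3 and 23.0 TPM in the controls (-2.41, limma adjusted p = 0.00688). Lgalsl, for a galectin-related protein, had 4.59 and 5.28 TPM with the fusion and 19.4 and 27.8 TPM in the controls (-2.03, limma adjusted p = 0.0121). Neither fall passed after rescaling, with changes of -0.82 and -0.42.

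**Figure D5:**
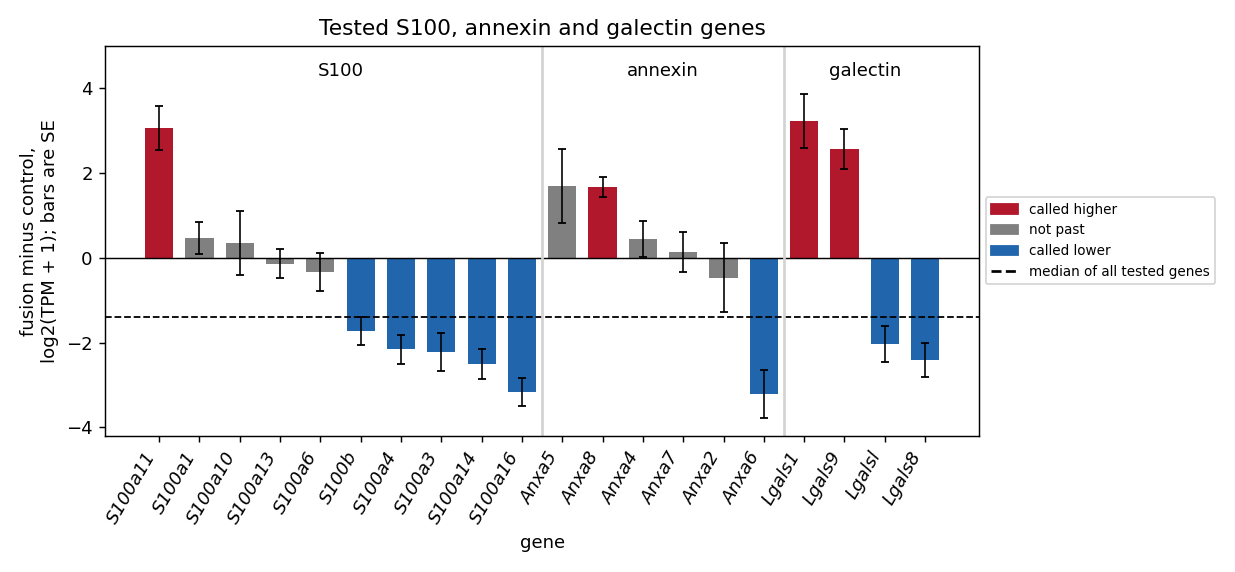
Change of the 20 tested S100, annexin and galectin genes of the lists, members included, fusion minus control in log2(TPM + 1), as bars with SE, grouped by family and coloured by the call. Of these, 4 were called higher (S100a11, Anxa8, Lgals1 and Lgals9), 8 lower and 8 did not pass; the dashed line is the median of all tested genes, -1.41.

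Over the 3 families 20 listed genes were tested, and 4 were called higher and 8 lower, beside 4.95% and 51.3% of all tested genes. After median ratio rescaling 8 were higher and 2 lower, beside 14.3% and 18.6% of all tested genes. The median change was -1.03 for 10 S100 genes, 0.29 for 6 annexins and 0.26 for 4 galectins. After removal of control replicate 1 or control replicate 2, the calls of all called genes other than S100a14 ended. In these fits only the fusion libraries give a spread, and S100a14 was listed at 0 in both. They therefore cannot show that its fall is firmer than the other changes. Its log2 change was -2.165 without control replicate 1 and -2.83 without control replicate 2.

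Receptors, ligands and partners of these proteins were read from a list of 19 genes, of which 9 were tested, and 2 rose, 2 fell and 5 did not pass. Of all tested genes 4.95% were called higher and 51.3% lower. After rescaling 3 of the 9 were higher and 1 lower, beside 14.3% and 18.6% of all tested genes. Lgals3bp, a secreted glycoprotein that binds galectins and is induced by interferon, had 90.6 and 54.3 TPM in the fusion libraries, against 1.25 and 0.968 TPM in the controls. Its log2 change was 5.08 ± 0.45 (SE, limma adjusted p = 0.00367). Fpr2, the formyl peptide receptor through which Anxa1 acts, was at 3.58 and 3.69 TPM with the fusion and listed at 0 in both controls (limma adjusted p = 0.00393). Fpr2 reached the filter of 1 TPM only through the fusion libraries. Tpm1, for a tropomyosin of actin filaments, had 51.5 and 64.7 TPM in the fusion libraries and 572 and 578 TPM in the controls (-3.29, limma adjusted p = 0.00371). Mgat5, which builds the branched sugars that galectins bind, had 0.474 and 0.874 TPM with the fusion and 2.41 and 1.98 TPM in the controls (-0.94, limma adjusted p = 0.0468), and after rescaling its change was 0.00. None of these 4 passed without control replicate 1 (limma adjusted p = 0.0670 to 0.143) or control replicate 2 (limma adjusted p = 0.0784 to 0.143). Mgat5 passed in only 2 of its 13 other settings (limma adjusted p = 0.0420 to 0.999 over the 13). It did not pass without fusion replicate 1 (limma adjusted p = 0.112), with no trend (0.0724) or in a robust fit (0.0561).

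Of the partners that did not pass, Cacybp, which binds S100a6, had 64.1 and 123 TPM in the fusion libraries and 191 and 114 TPM in the controls. Vim, for the intermediate filament vimentin, had 42.9 and 80.9 TPM with the fusion and 56.9 and 77.3 TPM in the controls, and it passed upward after rescaling (limma adjusted p = 0.0181) and with quantile normalization (limma adjusted p = 0.0168). Plat, for the tissue plasminogen activator, had 27.9 and 24.9 TPM with the fusion and 32.3 and 67.6 TPM in the controls. Ahnak, a scaffold that binds the S100a10 and Anxa2 complex, was under 1 TPM in every library.

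Lists of cell type markers differed in direction, and their part in the results was not tested. The shares of all tested genes to set beside each marker count below were 4.95% higher and 51.3% lower. After rescaling they were 14.3% and 18.6%. Of 9 fibroblast markers, 8 were tested and 3 rose (Mgp, Col1a1 and Foxc1), and they had a summed level of 486 and 971 TPM in the fusion libraries, against 52.3 and 140 TPM in the controls. Without Mgp, a gene set aside after its values were seen, the sums were 121 and 254 TPM with the fusion and 52.3 and 139 TPM in the controls, which overlap. After rescaling 6 of the 8 were higher and 0 lower (limma, 0 also at an unadjusted p under 0.05). In both groups the fibroblast sum was higher in replicate 2, as were the 7 tested members. The endothelial, mural, oligodendrocyte precursor, astrocyte and erythroid sums below shared this order. The microglia, other leukocyte, neuronal and ependymal sums did not. Of all tested genes, 62.1% were higher in replicate 2 with the fusion and 65.2% in the controls. Of 11 microglia and macrophage markers, 10 were tested, and 4 rose (Tyrobp, Fcer1g, Aif1 and Ctss) and 1 fell (P2ry12). After rescaling 5 rose and 0 fell (limma, 1 lower at an unadjusted p under 0.05). Their sum was 491 and 719 TPM in the fusion libraries and 105 and 26.7 TPM in the controls, and Fcer1g alone gave 327 and 480 TPM with the fusion. P2ry12 was listed at 0 in both fusion libraries, and Cx3cr1 had 0 and 0.112 TPM there. Csf1r had 1.33 and 1.27 TPM with the fusion and 1.54 and 0.499 TPM in the controls.

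Of 9 markers of other blood leukocytes, Mpo, Elane, Ngp and Cd3e were at 0 in every library, and the list summed to 16.5 and 60.3 TPM in the fusion libraries and 29.0 and 2.89 TPM in the controls. The 7 endothelial markers summed to 3.24 and 5.88 TPM with the fusion and 1.24 and 1.40 TPM in the controls, with 1 tested and higher. The 6 mural markers summed to 16.03 and 75.6 TPM with the fusion and 57.3 and 216 TPM in the controls, with 2 tested and 0 called (limma, 0 also at an unadjusted p under 0.05). The 8 oligodendrocyte precursor markers were all detected in every library, summing to 453 and 578 TPM with the fusion and 1261 and 1616 TPM in the controls. In bulk libraries their detection does not establish what the sorted cells were. Of the 8, 5 fell, beside 51.3% of all tested genes, among them Pdgfra, at 123 and 192 TPM with the fusion and 337 and 429 TPM in the controls. After rescaling 1 of the 8 was higher and 0 lower (limma, 2 lower at an unadjusted p under 0.05), and the change of Pdgfra was 0.46 (limma adjusted p = 0.186).

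The 7 astrocyte markers summed to 33.4 and 65.1 TPM with the fusion and 228 and 281 TPM in the controls, and 4 of 6 tested fell, beside 51.3% of all tested genes. After rescaling 1 of the 6 was higher and 1 lower. The 7 neuronal markers summed to 46.3 and 28.5 TPM with the fusion and 184 and 179 TPM in the controls, and 3 of 5 tested fell, and 2 after rescaling. Of 6 ependymal and choroid markers 4 were tested, with Ttr and Ccno higher and Rsph1 and Otx2 lower, and Ttr, a choroid plexus gene, had 107 and 15.4 TPM with the fusion and 0 and 0.255 TPM in the controls. The 5 erythroid markers summed to 1.08 and 8.50 TPM with the fusion and 3.51 and 13.7 TPM in the controls, with 2 tested and 0 called (limma, 0 also at an unadjusted p under 0.05).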

How the data were processed

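The authors deposited 1 table of TPM for 4 libraries, in which every library sums to the same total. The submitters' processing notes name Trimmomatic 0.39 and Salmon 1.8.0, with the builds GRCm38 and mm10, and for the annotation release the sources used here give nothing. Libraries were full-length amplified cDNA in paired-end reads of 100 bp, per the labels. Each column was assigned by its group and replicate number.

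Genes reaching 1 TPM in 2 or more libraries were tested on log2(TPM + 1), a scale that understates the change of low genes, with limma 3.58.1 in R 4.3.3 (mean-variance trend, 2-sided, Benjamini-Hochberg, threshold 0.05; 3.25 prior and 2 residual degrees of freedom). A gene under 1 TPM in both libraries of a group could pass this filter only through the other group. Its call is then not independent of the filter. Anxa8, Fpr2, S100a14 and Mgat5 passed in this way, as did markers such as Ttr and P2ry12. The fit was tested on simulated data that took their spread from the control libraries, with few changed genes and no common shift. They cannot tell how calls fare under the spread and shift of the real libraries. Coordinates and 31-base words came from GENCODE M21 (GRCm38), promoters from RefSeq. The members, the lists and the choice of named genes were made with earlier results of these data known. Some marker genes are not reported here and were left out of the marker counts and sums. The rule takes the members and, from the S100, annexin, galectin and partner lists, every gene past the threshold and up to 3 tested others of highest mean. Cell type markers, S100a2, S100a8, S100a9 and Ahnak were named after their values were seen.

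Alternatives were median ratio rescaling over 10965 genes, quantile normalization, renormalization without mitochondrially encoded and ribosomal protein genes, pseudocounts of 0.1 and 5, no filter, a mean of 5 TPM or more, limma without trend or robust, a replicate block, and leaving out each library.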

Additional observations from a re-analysis of the deposited data

How the results depend on the processing

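After median ratio rescaling, 4 members were higher (S100a6, S100a11, Anxa5 and Lgals1) and 0 lower, against 1846 higher and 2396 lower among all genes, and the median change of all genes was -0.15. With quantile normalization 4 were higher (S100a10, S100a11, Anxa5 and Lgals1) and 0 lower, against 1948 and 1955. Of all calls, 91.2% were lower as reported, 56.5% after rescaling and 50.1% with quantile normalization. Higher calls among all genes numbered 637 as reported, 972 without mitochondrial and ribosomal protein genes, 353 with no filter, where 1 member was higher, and 405 among genes averaging 5 TPM or more. Leaving out 1 library gave 0 to 4 members higher, 0 to 2 lower, 14 to 1084 of all genes higher and 1025 to 7987 lower; no member passed without control replicate 1 (limma, 1 higher and 1 lower at an unadjusted p under 0.05) or without control replicate 2 (2 and 1), which takes the spread of the fusion libraries for the single control.

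Changes that turned round after rescaling were 1.44 for S100a6, 1.07 for Anxa2, 0.033 for S100b, 1.63 for S100a13, 0.00087 for Mgat5, 1.03 for Cacybp, 1.57 for Vim and 0.92 for Plat. With quantile normalization they were 0.21 for S100a6, 1.08 for Anxa2, -0.051 for S100a1, 0.10 for S100a13, 0.36 for Mgat5, 0.82 for Cacybp, 1.53 for Vim and 0.97 for Plat. Without mitochondrial and ribosomal protein genes they were 0.30 for S100a6, 0.084 for Anxa2, 0.50 for S100a13 and 0.46 for Vim. Over the 4 left-out libraries the change ran from -0.82 to 0.16 for S100a6, -0.68 to 1.38 for S100a10, -1.41 to 0.47 for Anxa2, -0.34 to 0.069 for S100a13, -0.016 to 0.90 for Anxa4, -0.62 to 0.28 for Vim and -0.19 to 0.46 for Anxa7. The cause was not tested.

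Replicate numbers are shared by the groups, and whether same-numbered libraries were prepared together is not labelled. Deviations of same-numbered libraries had a correlation of -0.04 across genes, which cannot tell whether they shared a batch. With a replicate block 3 members were higher (S100a11, Anxa5 and Lgals1) and 1 lower, and 642 of all genes were higher and 6978 lower. Depth is unknown, so low values such as those of Anxa1 and Lgals3 carry no counting interval.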
